A study of Rattus norvegicus with 12 samples.

Results

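The miR-15 seed family was followed in rat liver as the 6 rows of the deposited table numbered as miR-15, miR-16, miR-195, miR-322 or miR-497, with any letter or copy suffix, out of 444 rows in all. They are Mir15b, Mir16, Mir15a, Mir497, Mir195 and Mir322-2. All 6 were above 0 in each of the 12 libraries and were among the 293 features tested. Mir15b and Mir322-2 were singled out because earlier results of these data had them moving in opposite directions. The treatment comparisons below are therefore given as levels and differences with their errors, without p-values for the members.

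Liver was taken from male Sprague-Dawley rats, 7 weeks old at the start of dosing by mouth on 5 days. Rats labelled CAF had caffeine at 120 mg/kg, rats labelled DEX had dextromethorphan hydrobromide monohydrate at 100 mg/kg, CAF+DEX rats had both at these doses, and Control rats had the water vehicle. Each group held 5 rats, 3 libraries per group are used here, and tissue was collected 1 h after the last dose. Nothing in the labels ties a library to a rat, so errors measure the spread between libraries, which may be technical. Caffeine blocks adenosine receptors, and dextromethorphan is a cough suppressant that acts on glutamate and sigma receptors. Recovered depth was 2863572 to 3418568 reads per library, and Mir192, a hepatocyte microRNA, averaged 1381305 FPKM; all 5 hepatocyte marker rows were above 0 in the libraries.

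A microRNA pairs with messenger RNAs chiefly through its seed, bases 2 to 8 of the mature strand, so microRNAs with one seed can share targets. The miR-15 family is known for restraining the cell cycle through cyclins, CDKs and the anti-apoptotic BCL2, and in the postnatal mouse heart its members hold back proliferation. Its genes lie in pairs or clusters that are transcribed together. MiR-15b is made beside miR-16, miR-497 beside miR-195, and miR-322, the rodent counterpart of human miR-424, beside miR-503 on the X chromosome.

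The mature 5p strands are shown because the family is defined by them. They are from RefSeq (build GRCr8, 5′ to 3′), with the seed in capitals, and 5 of the 6 members matched, 4 by symbol and Mir322-2 by its microRNA name. Mir15a has no entry there.
miR-15b-5p: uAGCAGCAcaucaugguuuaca
miR-16-5p: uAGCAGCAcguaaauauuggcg
miR-497-5p: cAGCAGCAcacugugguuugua
miR-195-5p: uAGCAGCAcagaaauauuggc
miR-322-5p: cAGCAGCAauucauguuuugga
miR-503-5p, the neighbour of Mir322-2: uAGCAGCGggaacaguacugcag

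Of 724 mature rat sequences in the RefSeq table, 5 had this seed, and all 5 belong to the family. MiR-503-5p shares bases 2 to 7 and differs from miR-15b-5p within the seed by A8G, counted from the 5′ end. Outside the seed, miR-16-5p and miR-195-5p are near copies. MiR-16-5p and miR-195-5p matched at 19 of 21 aligned positions without gaps and differed by G10A and U11G. MiR-15b-5p matched miR-497-5p and also miR-322-5p at 16 of 22 positions. It matched its own neighbour miR-16-5p at 14 of 22. The strands of the contrasted pair, miR-15b-5p and miR-322-5p, share the seed and 9 of the 15 positions outside it, and differ by U1C, C9A, A10U, G16U, A20G and C21G.

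On rn7, Mir15b (ENSRNOG00000035483) is on chromosome 2 at 153245200 to 153245297 on the plus strand, and Mir16 (ENSRNOG00000035504) follows 51 bases on, at 153245349 to 153245443. Mir497 (ENSRNOG00000036260) is on chromosome 10 at 54951505 to 54951584, plus strand, and Mir195 (ENSRNOG00000035638) lies 253 bases on, at 54951838 to 54951924. Mir15a (ENSRNOG00000051849) is on chromosome 15 at 35797798 to 35797880, minus strand. Mir322-2 (ENSRNOG00000064087) is on chromosome X at 132806594 to 132806688, minus strand, 220 bases from Mir503. These are the annotated microRNA genes; positions within host genes were not analysed here. In mouse and human a miR-16 gene also lies beside miR-15a, whereas the table has 1 row for miR-16, the one beside Mir15b. Each row covers a whole hairpin, so 5p and 3p strands are not told apart.

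Levels are given as FPKM, reads per kilobase of the gene and per 1000000 reads on the listed features. The length is that of the hairpin row, 80 to 98 bases, not of the mature strand. Levels and ratios between members therefore carry this length. By mean reads, Mir195 ranked 50 and Mir15a 54, against 49 and 48 by mean FPKM. Mir16 was the highest member at 368908 to 473522 FPKM over the 12 libraries and the seventh row of the table by mean FPKM. Mir322-2 came next at 71526 to 93648 FPKM and then Mir497 at 33766 to 44095 FPKM. Mir15a, at 23630 to 31523 FPKM, and Mir195, at 22705 to 31055 FPKM, overlapped and cannot be ordered. Mir15b was lowest at 12095 to 16300 FPKM. Apart from Mir15a and Mir195, no neighbours in this order overlapped in any library. The rows of the genes 51 bases apart were thus the most unequal, with Mir16 at 27.3 to 36.2 times the level of Mir15b within a library. Whether the single miR-16 row also holds reads from another miR-16 gene was not tested. Mir195 stood at 0.639 to 0.768 times Mir497.

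All members had a small spread within groups. Their residual SD, which limma draws toward that of features at a similar level, was 0.085 to 0.116 on the log2 scale. The median over all tested features was 0.29, but these include features with few reads. No member had under 3598 reads in any library.

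**Figure D1:**
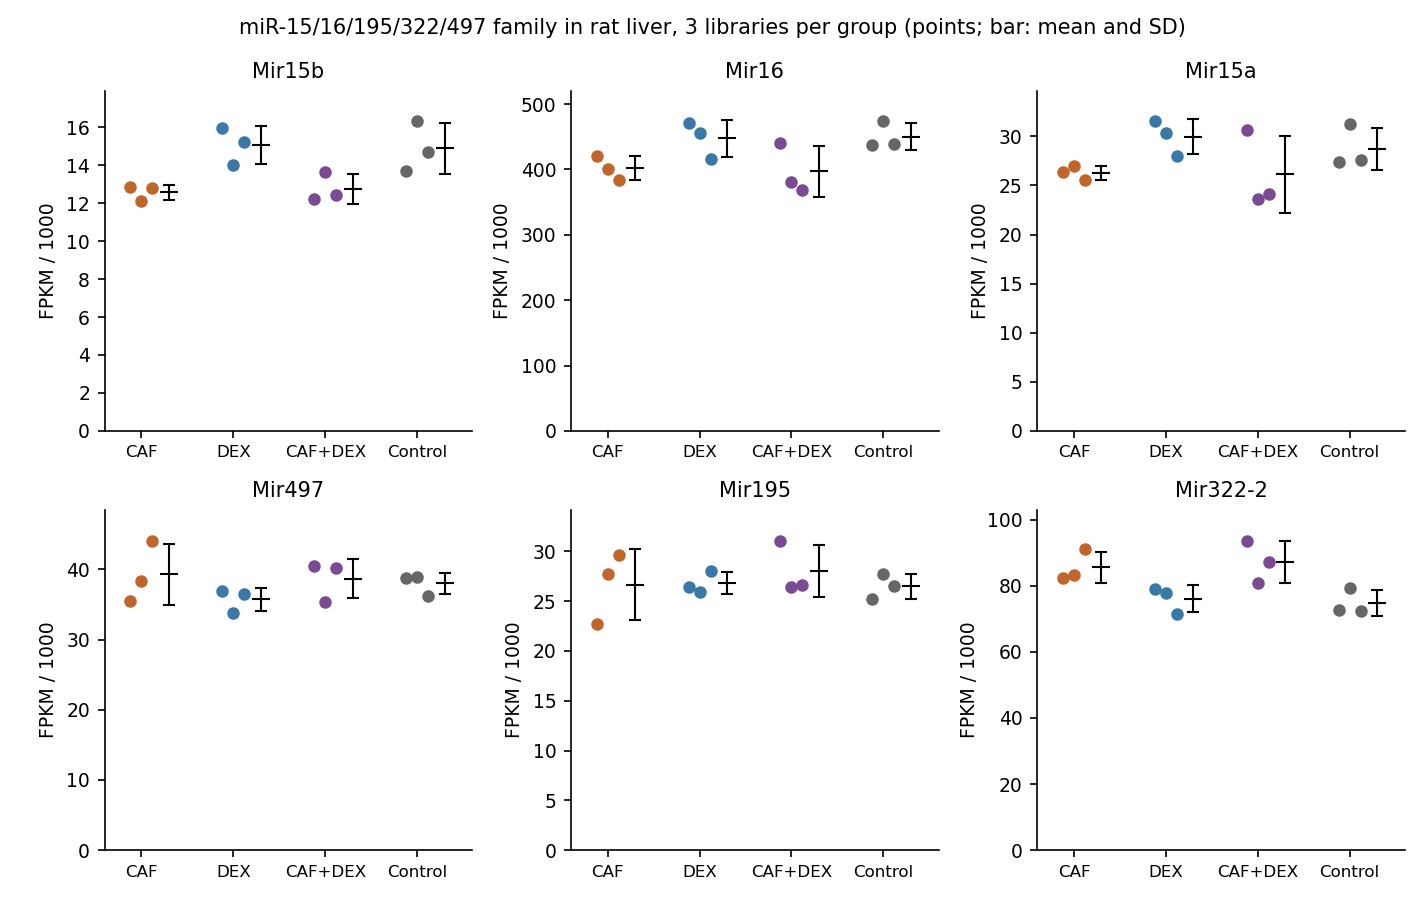
FPKM divided by 1000 (linear axis from 0) of each family member in the 3 libraries of the CAF, DEX, CAF+DEX and Control groups; points are libraries, bars the mean and SD. The Mir15b points of both caffeine groups lie below all DEX and Control points (at most 13640 FPKM, against at least 13664), and those of Mir322-2 lie above them (at least 80993 FPKM, against at most 79336).

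Caffeine alone was set against vehicle. Mir15b, Mir16 and Mir15a had lower means in CAF than in Control, Mir322-2 had a higher one, and Mir497 and Mir195 stayed close to the Control mean. Mir15b had 12821, 12095 and 12770 FPKM in CAF, against 13664, 16300 and 14682 FPKM in Control. All 3 CAF libraries were below all 3 Control libraries, and the log2 fold change, from limma on log2(FPKM + 3.80), was -0.24 (SE 0.08). Mir322-2 had 82446, 83174 and 91051 FPKM in CAF, against 72739, 79336 and 72497 FPKM in Control. Here every CAF library was above every Control library, with a log2 fold change of 0.19 (SE 0.07).

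Mir16, the bulk of the family, had 420330, 401512 and 384483 FPKM in CAF, against 438148, 473522 and 439634 FPKM in Control. The groups did not overlap and the log2 fold change was -0.16 (SE 0.07), or -0.06 with quantile normalization. That method gives rows of equal rank the same value in every library, so it can shrink differences of a top row such as Mir16. Mir15a averaged 26296 ± 729.2 FPKM in CAF and 28754 ± 2148 FPKM in Control (SD, n = 3 each). Its groups also stood apart, at -0.13 (SE 0.09). Mir497 averaged 39311 ± 4373 FPKM in CAF and 38008 ± 1498 FPKM in Control (SD, n = 3 each), with overlapping groups and a log2 fold change of 0.04 (SE 0.08). Mir195 averaged 26657 ± 3557 FPKM in CAF and 26469 ± 1249 FPKM in Control (SD, n = 3 each), at 0.00 (SE 0.09), again overlapping.

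None of the 6 members passed limma's threshold (Benjamini-Hochberg adjusted p under 0.05 over the 293 features) in CAF against Control, where 0.683% of all tested features, or 2, passed. There 38 tested features had an unadjusted limma p under 0.05, and limma-voom called 2. In the same comparison 3 of 6 members had all CAF libraries below all Control libraries, as did 8.19% of tested features, and 1 of 6 had them above, as did 6.48%. Since these contrasts were known when the family was chosen, nothing is read from these shares. In bulk liver, fewer cells of one type and less of the microRNA per cell cannot be told apart.

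Caffeine on top of dextromethorphan was set against dextromethorphan alone, a comparison with no library in common with the one above. Mir15b had 12191, 13640 and 12406 FPKM in CAF+DEX, against 15946, 14000 and 15237 FPKM in DEX. The groups stood apart, and the log2 fold change was -0.24 (SE 0.08), or -0.13 with quantile normalization. Mir322-2 had 93648, 80993 and 87234 FPKM in CAF+DEX, against 79003, 77894 and 71526 FPKM in DEX. All CAF+DEX libraries were the higher ones, at 0.20 (SE 0.07). The pair was chosen with this comparison known too, so its opposite placing here is a description and no separate support.

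Mir16 had 440907, 381454 and 368908 FPKM in CAF+DEX, against 471253, 455855 and 416291 FPKM in DEX. The groups overlapped through CAF+DEX library 1, and the log2 fold change was -0.18 (SE 0.07), with its sign turned by quantile normalization (0.06). Mir15a had 30663, 23630 and 24088 FPKM in CAF+DEX, against 31523, 30298 and 28031 FPKM in DEX. CAF+DEX library 1 stood near the DEX level while the other CAF+DEX libraries were below it, at -0.21 (SE 0.09) in all and -0.33 without CAF+DEX library 1. Mir497 had 0.11 (SE 0.08) and Mir195 0.06 (SE 0.09), both with overlapping groups. No member was called in this comparison, where limma called 0% of tested features, 23 had an unadjusted p under 0.05 and limma-voom also called 0. In 1 of 6 members all CAF+DEX libraries lay below all DEX libraries, and in 1 above, against 8.87% and 4.78% of tested features.

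Both drugs together were also set against vehicle, which shares its Control libraries with the first comparison. On the log2 scale Mir15b differed by -0.22 (SE 0.08) and Mir322-2 by 0.22 (SE 0.07), and for both genes the CAF+DEX and Control libraries did not overlap. For Mir15b the gap was narrow, 13640 FPKM in the highest CAF+DEX library against 13664 FPKM in the lowest Control library. Mir16 had -0.19 (SE 0.07), or 0.00 with quantile normalization, and Mir15a -0.15 (SE 0.09), or -0.27 without CAF+DEX library 1. Both overlapped with Control through that library. Mir497 and Mir195 had 0.02 (SE 0.08) and 0.08 (SE 0.09). Limma called 0 members and 0% of tested features, with 30 features at an unadjusted p under 0.05 and 0 calls by limma-voom. Libraries below all of Control were found for 1 of 6 members and 7.51% of tested features, and above all of Control for 1 of 6 and 7.17%.

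With dextromethorphan alone the members' means lay close to those of vehicle. Mir15b averaged 15061 ± 985.0 FPKM in DEX and 14882 ± 1329 FPKM in Control (SD, n = 3 each), a log2 fold change of 0.02 (SE 0.08). Mir322-2 averaged 76141 ± 4035 FPKM in DEX and 74857 ± 3881 FPKM in Control (SD, n = 3 each), also 0.02 (SE 0.07). The other 4 members lay between -0.09 (SE 0.08, Mir497) and 0.06 (SE 0.09, Mir15a). The DEX and Control libraries of all 6 members overlapped; of all tested features, 6.83% had DEX libraries above and 4.1% below. Limma called 0% of features (13 at an unadjusted p under 0.05; limma-voom 0).

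Dextromethorphan on top of caffeine likewise gave small differences. In CAF+DEX against CAF the members ran from -0.02 for Mir16 (SE 0.07), Mir497 (SE 0.08) and Mir15a (SE 0.09) to 0.08 for Mir195 (SE 0.09), and all groups overlapped, where 3.41% of tested features had CAF+DEX above and 3.75% below. Limma called 0% of features here (15 at an unadjusted p under 0.05; limma-voom 0). The interaction, which is how far the log2 difference of the combination departs from adding up the single drugs, was 0.00 for Mir15b (SE 0.11) and 0.00 for Mir322-2 (SE 0.10). For the other members it ran from -0.08 (SE 0.13, Mir15a) to 0.07 (SE 0.12, Mir497). Limma called 0% of features for the interaction, with 16 at an unadjusted p under 0.05 and 0 by limma-voom.

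**Figure D2:**
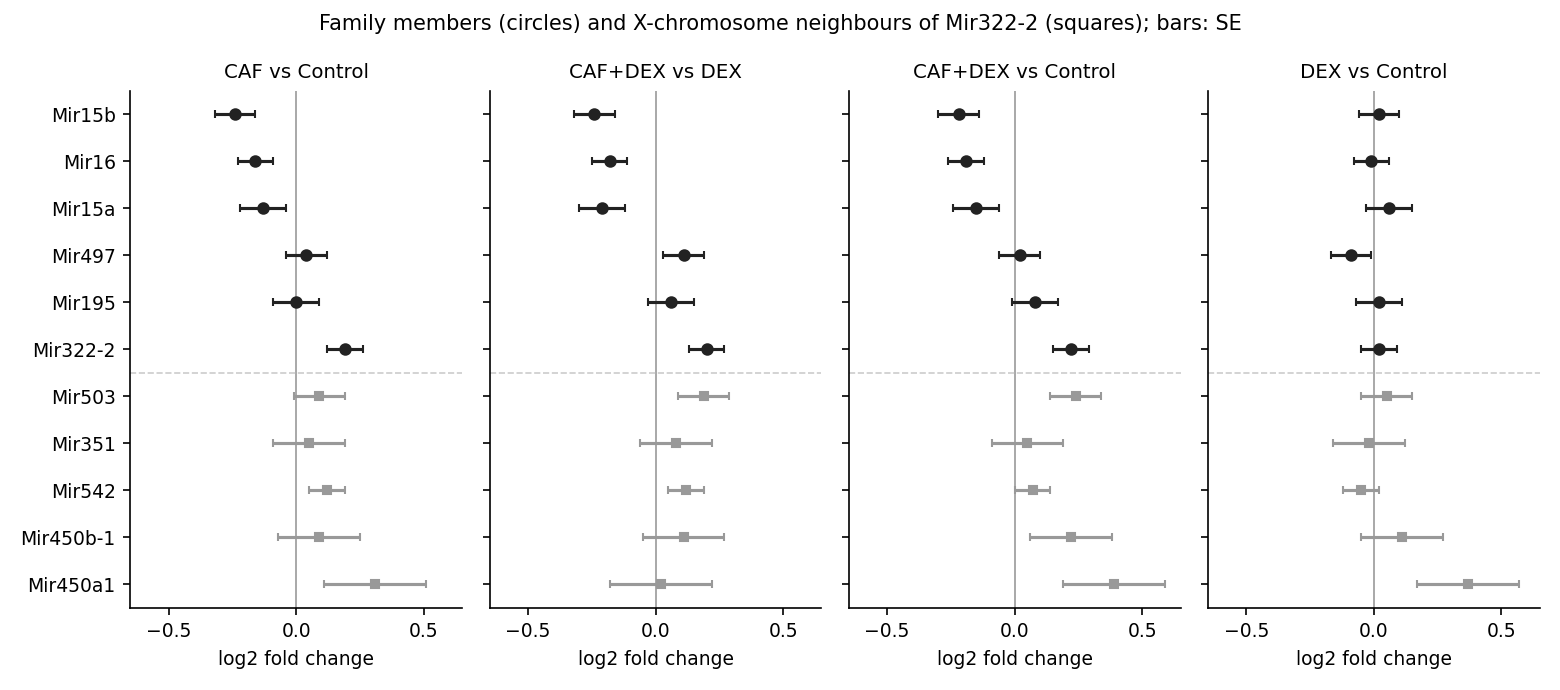
Log2 fold change (x axis, with SE bars) of the 6 family members (circles) and the 5 X-chromosome neighbours of Mir322-2 (squares) in 4 comparisons, 3 libraries per group. In the 3 comparisons that add caffeine, Mir15b lies between -0.24 and -0.22 and Mir322-2 between 0.19 and 0.22; in DEX against Control both lie at 0.02.

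A ratio of 2 members within one library does not depend on how libraries are scaled to each other. Mir322-2 was 6.43, 6.88 and 7.13 times Mir15b in CAF, 4.95, 5.56 and 4.69 times in DEX, 7.68, 5.94 and 7.03 times in CAF+DEX and 5.32, 4.87 and 4.94 times in Control. All 6 libraries with caffeine had a higher ratio than all 6 without, a description of the pair that was chosen for this contrast.

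Mir16 over Mir322-2 lay the other way, lower in libraries with caffeine. Mir16 averaged 4.72 ± 0.448 times Mir322-2 in CAF, 5.88 ± 0.0761 times in DEX, 4.55 ± 0.277 times in CAF+DEX and 6.02 ± 0.048 times in Control (SD, n = 3 each). The highest caffeine library, at 5.10, was below the lowest library without caffeine, at 5.82. Mir322-2 was chosen for its direction in these contrasts, so this split is a description and no separate support. By contrast Mir16 over Mir15b, neighbours on chromosome 2, averaged 32.0 ± 1.68 in CAF, 29.8 ± 2.63 in DEX, 31.3 ± 4.31 in CAF+DEX and 30.4 ± 1.55 in Control (SD, n = 3 each), with all groups overlapping. Mir195 over Mir497 averaged 0.678 ± 0.0418 in CAF, 0.751 ± 0.0297 in DEX, 0.725 ± 0.0559 in CAF+DEX and 0.697 ± 0.0429 in Control (SD, n = 3 each).

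**Figure D3:**
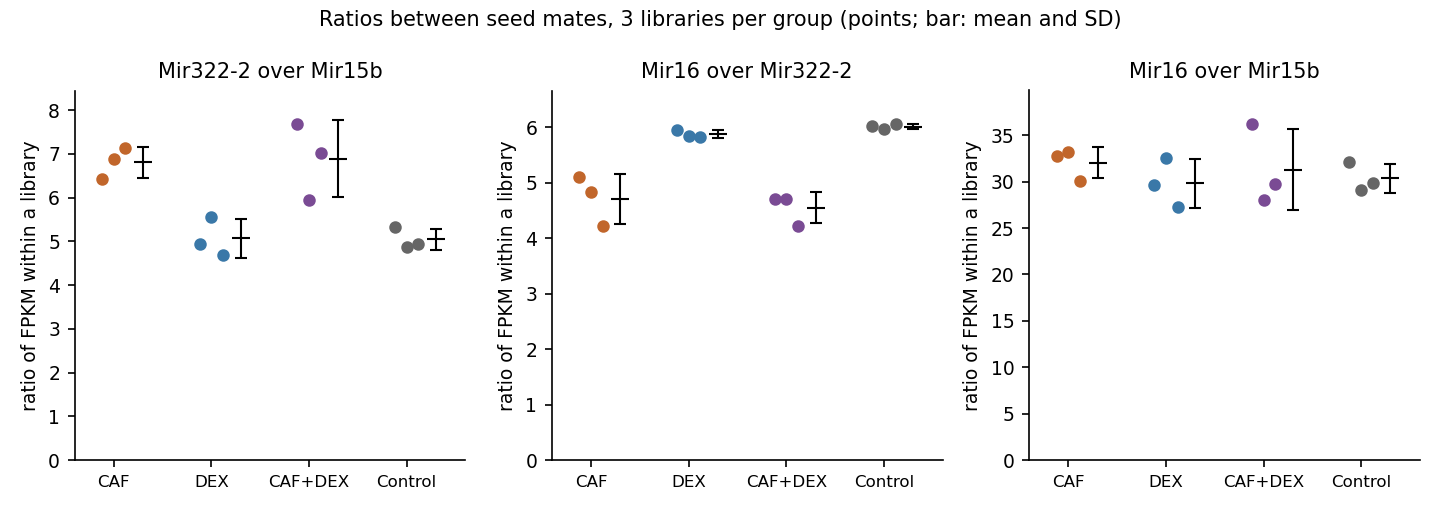
Ratio of FPKM within each library (linear axis from 0) for Mir322-2 over Mir15b, Mir16 over Mir322-2 and Mir16 over Mir15b; points are the 3 libraries of a group, bars the mean and SD. The first 2 ratios split libraries with caffeine (5.94 to 7.68 and 4.22 to 5.10) from those without (4.69 to 5.56 and 5.82 to 6.06). Both hold Mir322-2, chosen for this contrast, so the splits are descriptions. The third ratio does not split them.

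The family as a whole was summed over its reads. Its members took 5.52 ± 0.073% of reads in CAF, 5.89 ± 0.31% in DEX, 5.50 ± 0.48% in CAF+DEX and 5.91 ± 0.27% in Control (SD, n = 3 each). Libraries ran from 5.46 to 5.60% in CAF, 5.55 to 6.17% in DEX, 5.21 to 6.05% in CAF+DEX and 5.74 to 6.22% in Control, so CAF and Control did not overlap while CAF+DEX overlapped with both DEX and Control. Mir16 made up 66.8 to 72.7% of the family in a library. Mir322-2 held 14.0 to 15.8% of the family in CAF, 12.2 to 12.4% in DEX, 14.7 to 15.9% in CAF+DEX and 12.0 to 12.1% in Control. Mir15b held 1.98 to 2.69% over all libraries.

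The neighbours of Mir322-2 on the X chromosome, all on its strand within 10 kb, had positive log2 fold changes in 5 of 5 in CAF against Control, with a median of 0.09 beside 0.00 over all tested features, and 0 were called. In CAF+DEX against DEX 5 of 5 were positive with a median of 0.11 (all features -0.02), and in CAF+DEX against Control 5 of 5 with a median of 0.22 (all features -0.01), again with 0 called. Mir503, whose seed differs in the last base, averaged 5974 ± 126.1 FPKM in CAF+DEX and 5078 ± 507.5 FPKM in Control (SD, n = 3 each), with groups that did not overlap and a log2 fold change of 0.24 (SE 0.10). In CAF against Control it had 0.09 (SE 0.10) and the groups overlapped. Mir542 had 0.12 (SE 0.07) both with caffeine alone over vehicle and with caffeine added to dextromethorphan. Mir351, Mir450a1 and Mir450b-1 had 0.05 (SE 0.14), 0.31 (SE 0.20) and 0.09 (SE 0.16) in CAF against Control. Mir450a1, at 106.9 reads per library, stood at 0.37 (SE 0.20) in DEX against Control as well. In that comparison 3 of the 5 were positive with a median of 0.05.

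Variation between libraries of one group is independent of the treatment contrasts, and was compared between members. For each pair, deviations from the group mean of log2(FPKM + 3.80) were correlated over the 12 libraries, with an exact two-sided permutation within groups (1296 arrangements) and Benjamini-Hochberg adjustment over 20 pairs, 15 among members and 5 of Mir322-2 with its neighbours. No pair passed an adjusted p of 0.05, and 3 of 20 had an unadjusted p under 0.05. The highest correlation was between Mir16 on chromosome 2 and Mir15a on chromosome 15, with r = 0.92 (exact permutation p = 0.00849, adjusted p = 0.17) and Spearman rho = 0.88 (exact permutation p = 0.00849). Without the 2 libraries farthest from the median of Mir16, r was 0.85. Mir16 is the only miR-16 row, and whether it also holds reads from a gene outside chromosome 2 was not tested. This limit holds for all its correlations.

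Mir16 and Mir15b, 51 bases apart, had r = 0.08 (exact permutation p = 0.815, adjusted p = 0.987) and rho = 0.07 (exact permutation p = 0.856); without the 2 farthest libraries r was -0.18. Mir497 and Mir195 had r = 0.72 (exact permutation p = 0.115, adjusted p = 0.383) and rho = 0.64 (exact permutation p = 0.115), with 0.51 without the 2 farthest. The 5 correlations of Mir322-2 with its X-chromosome neighbours ran from r = 0.33 to 0.69, and those with the 4 members other than Mir15b, all on other chromosomes, from 0.56 to 0.72. Mir322-2 had r = 0.72 with Mir15a (exact permutation p = 0.0378, adjusted p = 0.228; rho = 0.72, exact permutation p = 0.0355), or 0.51 without the 2 farthest libraries. It had r = 0.64 with Mir503 (exact permutation p = 0.0247, adjusted p = 0.228; rho = 0.71, exact permutation p = 0.0131) and 0.69 with Mir542 (exact permutation p = 0.0571, adjusted p = 0.228; rho = 0.70, exact permutation p = 0.0579), which became 0.53 and 0.55 without the 2 farthest libraries. Mir15b and Mir322-2, the pair of opposite placing between groups, had r = 0.03 within groups (exact permutation p = 0.924, adjusted p = 0.987; rho = -0.12, exact permutation p = 0.754; r = -0.33 without the 2 farthest). Over all 20 pairs r ran from -0.09 to 0.92.

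**Figure D4:**
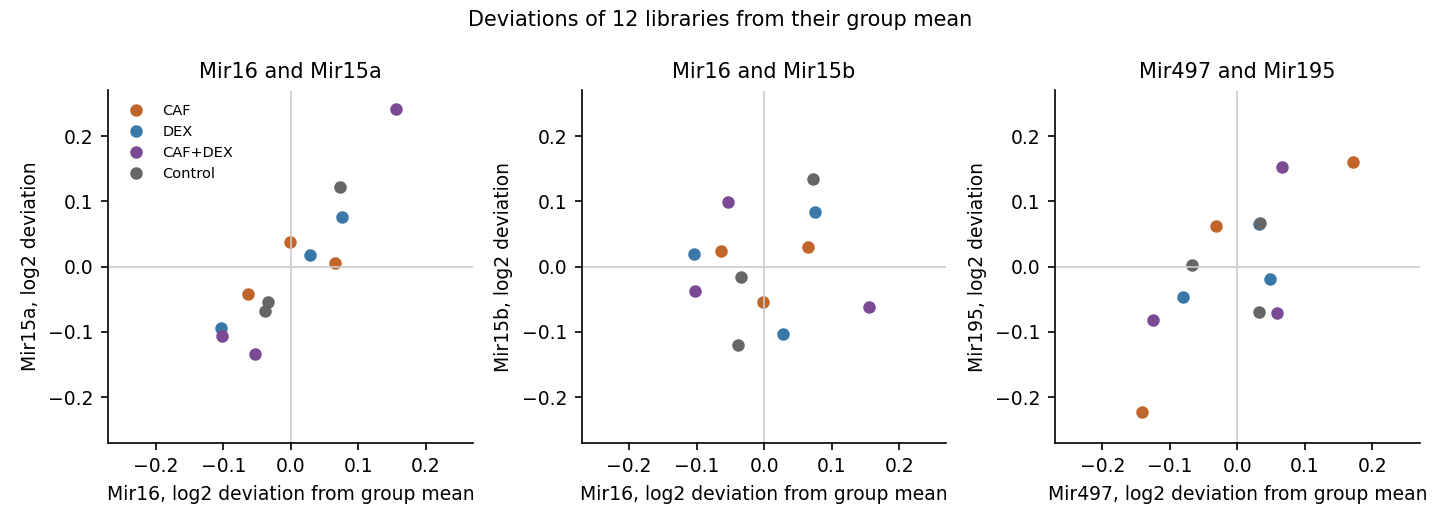
Log2 deviation of each of the 12 libraries from its group mean, for Mir16 (x) against Mir15a (y), Mir16 against Mir15b and Mir497 against Mir195; colours mark the 4 groups. Mir16 and Mir15a line up (r = 0.92), Mir16 and Mir15b scatter (r = 0.08), and Mir497 and Mir195 lie between (r = 0.72).

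Across all 12 libraries, group differences included, the tested features most like Mir15b in log2 level were Mir146a, which restrains innate immune signalling (Pearson r = 0.93 over 12 libraries), Mir187 (r = 0.82, at 42.25 reads per library) and Mir449a (r = 0.79, at 34.54 reads). Mir16 ranked 15 on this measure (r = 0.65). The features most like Mir322-2 were its neighbours Mir542 (r = 0.78) and Mir503 (r = 0.74), and Mir193b (r = 0.74, at 22.58 reads per library). These points share the treatment groups, so the values describe likeness only. Mir146a had log2 fold changes of -0.49 in CAF against Control and -0.45 in CAF+DEX against DEX, larger than those of Mir15b.

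Markers of other cells were read in the same libraries. The 6 leukocyte microRNAs, a list that holds Mir146a and Mir142, summed to 1.75 to 2.15% of reads in CAF, 2.59 to 2.97% in DEX, 1.96 to 2.40% in CAF+DEX and 2.63 to 2.99% in Control. These sums did not overlap between CAF and Control or between CAF+DEX and DEX. Mir142 and Mir146a, at means of 36674 and 30498 reads, make up most of them, with Mir223 next at 5276. In CAF against Control all 6 log2 fold changes were negative (median -0.50) and limma called 2 lower, Mir142 and Mir146a, the 0.683% called among all tested features. Both calls were lost with no filter, with only the groups compared, and without CAF library 2, CAF library 5, Control library 1 or Control library 3. In CAF+DEX against DEX all 6 were negative (median -0.19) with 0 called, but unevenly so. Values were -0.45 (Mir146a), -0.31 and -0.30 (Mir142), against -0.08, -0.03 and -0.01 (Mir223), beside a median of -0.02 over all tested features. The 3 erythroid microRNAs summed to 0.0602 to 0.114% in CAF, 0.0906 to 0.122% in DEX, 0.0847 to 0.094% in CAF+DEX and 0.101 to 0.121% in Control, with sums that overlapped in both comparisons, medians of -0.53 in CAF against Control and -0.23 in CAF+DEX against DEX, and 0 called. MiR-15 and miR-16 are also abundant in blood cells. The part of these cells in the Mir15b, Mir16 and Mir15a differences was not tested.

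The 4 stellate and mesenchymal markers summed to 2.11 to 2.91% of reads in CAF, 2.63 to 2.73% in DEX, 2.30 to 3.16% in CAF+DEX and 2.40 to 2.71% in Control, with overlapping groups. Their median log2 fold change was 0.15 in CAF against Control, with 0 called. Mir143, the most abundant of them, had -0.05 there, Mir145 0.10 and Mir199a2 0.21. The part of these cells in the Mir322-2 difference was not tested. The 5 hepatocyte markers held 24.4 to 25.7% in CAF, 23.4 to 24.3% in DEX, 23.2 to 25.6% in CAF+DEX and 24.5 to 26.0% in Control, at a median of 0.01 in CAF against Control. Mir192, at a mean of 481086 reads, is the largest part of these sums. Mir802 stood apart, at 0.36 in CAF against Control, 0.21 in CAF+DEX against DEX and 0.28 in CAF+DEX against Control. The other hepatocyte markers lay between -0.09 and 0.02 in CAF against Control, and 0 of the list were called. Of the endothelial list 1 marker, Mir126a, was tested, at a mean of 15.25 reads. None of the listed markers that have a row was at 0 in all libraries.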

How the data were processed

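Small RNA libraries were made with a QIAseq kit with molecular indices, per the labels' protocols. The sources used here do not say if indices were collapsed. The submitters' processing notes name cutadapt 3.7, STAR 2.7.11b and featureCounts of Subread 2.0.6 on rn7, without parameters. The authors deposited FPKM, scaled to the listed features (FPKM times length in kb sums to 1000000). Reads were recovered as the library totals at which every value is a multiple of 0.01 read, as when reads that map to several places are shared; 50.5 to 58.3% of values above 0 were whole. Column names give the group and a number that fits no sample title beyond doubt. Within groups, libraries differed beyond counting noise (chi-square over degrees of freedom 40.4 to 205.0, 176 features).

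The 293 features above 0 in at least 3 of 12 libraries were fitted with limma-trend (version 3.58.1, in R 4.3.3) as 4 group means of log2(FPKM + 3.80), the 10th percentile of values above 0; fold changes on this scale understate those of rare features. P-values were Benjamini-Hochberg adjusted over 293 features. The test was checked on simulated data, but only with changes larger than those of any member. That check does not show whether changes of the members' size would be called. The members and lists were chosen with earlier results of these data known. Named were all members, tested features within 10 kb on the same strand, the 3 features most like each of Mir15b and Mir322-2, and up to 3 members of a list by mean FPKM. Mir126a, Mir106a and the copies Mir19b1, Mir19b2, Mirlet7c1 and Mirlet7c2 were partly chosen after their values were seen. Mir20b, Mir34b, Mir34c, Mir29b-3 and Mir802 were named for their values. Alternatives were a pseudocount 10 times larger, no filter, a mean of at least 10 reads, quantile normalization, limma-voom on recovered reads, only the groups compared, and each library left out.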

Additional observations from a re-analysis of the deposited data

How the results depend on the processing

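No paired analysis was possible because the numbers in the column names do not match the replicate numbers of the sample titles. The Mir15b and Mir322-2 differences in CAF against Control, CAF+DEX against DEX and CAF+DEX against Control were recomputed under the 7 settings each that can move them. These were quantile normalization and leaving out each of the 6 libraries compared. Values ran from -0.30 to -0.13 for Mir15b and from 0.14 to 0.27 for Mir322-2. The groups compared did not overlap for either gene, so leaving out 1 library could not turn a sign. Quantile normalization could have turned it and did not. The Mir16 differences lost or turned their sign only with quantile normalization, in CAF+DEX against Control (0.00) and against DEX (0.06). This method gives rows of equal rank the same value in every library. For Mir16, row 7 by mean FPKM, it can shrink any group difference, so these values cannot tell if the differences are stable. How far this accounts for them was not tested. Over all members and comparisons, 9 of 288 values under these settings moved by 1 residual SD or more, 5 with quantile normalization and 4 without CAF+DEX library 1. The other 354 recomputed values, under filters, pseudocount, limma-voom, fewer groups or libraries outside the comparison, equalled the reported ones at 2 decimals and bear little on stability.

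Features called over the whole table, by limma: in CAF against Control 2, both lower, and 2 with no filter, both higher, 4 with quantile normalization, 0 with only the groups compared, and 0 to 10 with a library left out (0 without CAF library 2, CAF library 5, Control library 1 or Control library 3; 10 without CAF library 1; leaving out Control library 4, CAF+DEX library 1 and DEX library 2 gave 5, 4 and 1 calls in that order). In CAF+DEX against Control 0, and 2 with the larger pseudocount, with no filter or with the stricter filter, and 1 with quantile normalization. In CAF+DEX against DEX 0, and 1 with quantile normalization, and 0 to 1 with a library left out (1 without DEX library 4 or Control library 3). In DEX against Control and for the interaction 0, and 0 to 1 with a library left out (without Control library 3 and without DEX library 4). Correlated pairs numbered 0, and 0 to 1 with a library left out (Mir497 with Mir322-2, without DEX library 2 or DEX library 4). Family totals, for which leaving out libraries was added after seeing the data, moved by less than 1 SD. With 3 libraries per group, leaving 1 out cannot move the mean by more, so this does not bear on stability. Depth did not limit the members, each at 3598 reads or more in every library.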

Other observations

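Of 12 tested genes on a list of miR-17 and miR-25 family members with their cluster partners miR-18 and miR-19, known for promoting the cell cycle, 9 were higher and 3 lower in CAF against Control with a median log2 fold change of 0.12 (all features 0.00), and 5 were higher and 7 lower in CAF+DEX against DEX with a median of -0.01 (all features -0.02); limma called 0 in both. Mir19b1 and Mir19b2, copies that share reads, each had 0.18 in CAF against Control, and Mir25 had -0.08. Mir20b, at a mean of 64.83 reads, had the largest change on the list, -0.84 in CAF against Control and -0.47 in CAF+DEX against DEX. Mir106a, of the miR-17 family but not on this list, had 0.29 (SE 0.17) in CAF against Control and was not called. Of 17 tested microRNAs that restrain cyclins or CDKs with other seeds, among them let-7, miR-26 and miR-34 members, 8 were higher and 9 lower in CAF against Control with a median of -0.01 and 0 called. The most abundant rows of this list, Mirlet7f2, Mir26b and Mir101a, had 0.05, 0.07 and 0.02. Its lowest values were -0.79 for Mir34c and -0.67 for Mir34b, at means of 60.08 and 20.0 reads, and its highest was 0.23 for Mir29b-3. In CAF+DEX against CAF 16 of these 17 were higher with a median of 0.05, and in DEX against Control 14 with a median of 0.12. In CAF+DEX against Control 11 were higher (median 0.07), and in CAF+DEX against DEX 6 were higher and 11 lower (median -0.04). Limma called 0 in each. The list holds copies that share reads, such as Mirlet7c1 and Mirlet7c2.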
